A study of Homo sapiens with 12 samples.

Results

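ARC, LINC02226, GK-IT1 and MIR222HG are 4 of the 26058 genes listed in an RNA-seq table of HEK293 cells, a human embryonic kidney cell line. They were chosen by their fall with cordycepin in wild-type (WT) cells, that is, by the comparison of WT cordycepin+EGF with WT DMSO+EGF. The values that made this choice are given as a description with no test. The comparisons tested were kept to AMPK knockout (AMPK KO) cells and to cells that received DMSO alone. Their fits held all 12 libraries, so the spread they used came in part from the libraries of the choice. The fall of LINC02226 in AMPK KO cells was also known when the tests were chosen, so its test there is not independent evidence. All 4 passed the filter on low values that the tests used, a mean of at least 0.5 RPKM (reads scaled to transcript length and to library size) over the 12 libraries.

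Every library came from serum-starved HEK293 cells, either WT or with both genes of the AMPK catalytic subunit, PRKAA1 and PRKAA2, knocked out by CRISPR. Cells of each line were given either only the solvent DMSO, or DMSO and then EGF (epidermal growth factor), or 25 uM cordycepin and then EGF. Starvation lasted 24 h, DMSO or cordycepin was present for 20 min before EGF, and EGF acted for 30 min, so that cells given EGF had been treated for 50 min in all. For DMSO alone the labels give 50 min in one field and 20 min in another. Each of the 6 groups had 2 libraries, which the labels number replicate 2 and replicate 3. Whether the AMPK KO line was 1 clone was not given in the sources used here, and neither was whether the 2 libraries of a group came from separate cultures, so p-values measure the spread between these libraries only. In bulk RNA, fewer cells that express a gene and less RNA of that gene per cell cannot be told apart.

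Cordycepin is 3'-deoxyadenosine, an adenosine analogue without the 3' hydroxyl group. Inside cells it is phosphorylated, and its triphosphate can end the chain while a poly(A) tail is made. The study's authors state that it does not end pre-mRNA chains in general in intact cells. ARC is the activity-regulated cytoskeleton-associated protein, best known in neurons, where growth factors and synaptic activity induce its mRNA within minutes through the MAP kinase pathway; it descends from a retrotransposon Gag gene and forms capsid-like particles. MIR222HG is the host transcript from which miR-221 and miR-222, microRNAs that repress the cell cycle inhibitor CDKN1B, are cut. LINC02226 is a long intergenic noncoding RNA, and GK-IT1 is annotated as a transcript inside an intron of GK, the gene of glycerol kinase.

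The 4 transcripts differed in type, size and base composition (GENCODE annotation, build GRCh38). ARC (ENSG00000198576, chr8:142611049-142614479, minus strand) was the only protein-coding gene among them, with 3 exons in a span of 3431 bp. LINC02226 (ENSG00000245729, chr5:8333481-8457558, minus strand) had a span of 124078 bp, of which 1587 bp in 6 exons were kept. MIR222HG (ENSG00000270069, chrX:45745210-45770274, minus strand) had 4 annotated transcripts with 2866 exonic bases in a span of 25065 bp. GK-IT1 (ENSG00000229331, chrX:30671635-30672166, plus strand) was the shortest, with 397 exonic bases in 532 bp. It began 18276 bp after the start of GK on the same strand, 3516 bp after the preceding GK exon and 2135 bp before the next, and shared 0 bases with GK exons. Reads from unspliced GK RNA would fall in GK-IT1 too, and the 2 sources cannot be told apart in these data. Adenosine, which cordycepin resembles, made up 19.0% of the bases of the longest annotated transcript of ARC, 27.5% for LINC02226, 30.5% for MIR222HG and 32.0% for GK-IT1, at the percentiles 8.09, 55.2, 78.1 and 87.0 of the genes tested. GC content ranged from 36.6% in MIR222HG to 66.8% in ARC.

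**Figure D1:**
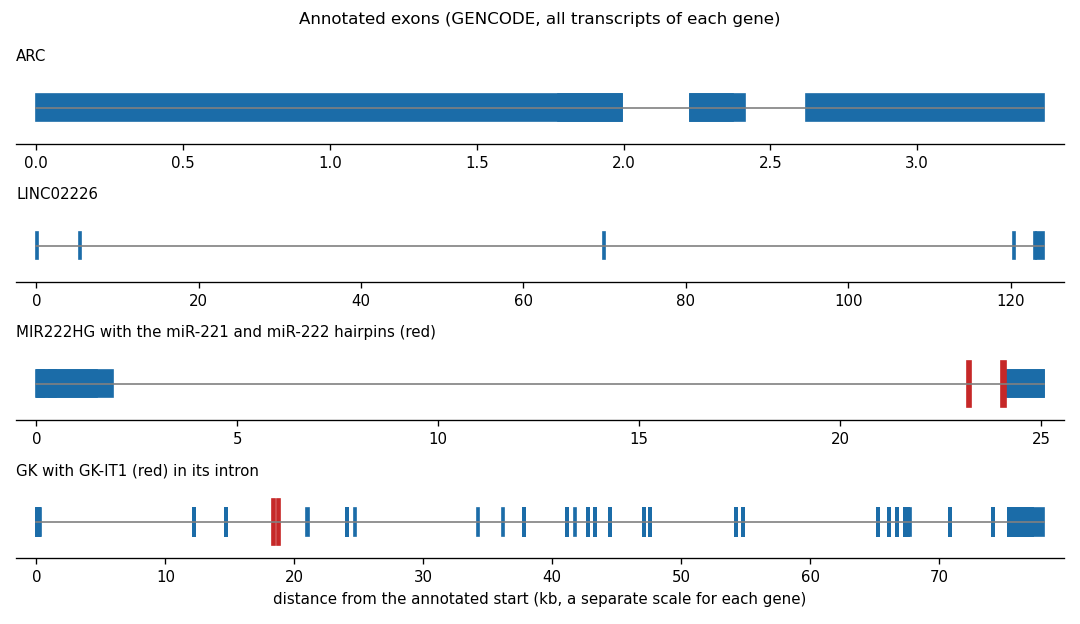
Annotated exons (blue boxes, all transcripts of a gene drawn together) of ARC, LINC02226, MIR222HG and GK against the distance from the annotated start in kb, on a separate scale for each gene. Red boxes mark the miR-221 and miR-222 hairpins, 24008 and 23150 bp from the start of MIR222HG, and the exons of GK-IT1, 18276 bp from the start of GK. Boxes narrower than the line were widened to be visible.

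The microRNAs made from MIR222HG are shown because they are what its RNA is known for. They had no row in the table, so no mature microRNA was measured. The RefSeq positions (GRCh38.p14) put both hairpins in the intron of the only GENCODE transcript of MIR222HG that spans them, and none of the 4 transcripts held a hairpin wholly in an exon. Reads counted for MIR222HG exons therefore came from the 2 ends of the gene. Capitals mark the seed, bases 2 to 8, by which a microRNA finds its targets. The first pair shared the seed GCUACAU, and the opposite arm of miR-222 had another.
hsa-miR-221-3p: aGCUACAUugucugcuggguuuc
hsa-miR-222-3p: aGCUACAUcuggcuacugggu
hsa-miR-222-5p: cUCAGUAGccaguguagauccu

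The promoters of LINC02226 and MIR222HG are shown because the levels of these noncoding RNAs were the most alike among the 4 transcripts, as given below. Each sequence runs from 250 bases before the RefSeq start to 50 bases after it (GRCh38.p14), at chr5:8457515-8457814 and chrX:45770218-45770517, both read on the minus strand. RefSeq promoters were matched for these 2 of the 4 genes. Capitals mark the CCAAT box, CCAAT on the printed strand or ATTGG where it lies on the other.
LINC02226: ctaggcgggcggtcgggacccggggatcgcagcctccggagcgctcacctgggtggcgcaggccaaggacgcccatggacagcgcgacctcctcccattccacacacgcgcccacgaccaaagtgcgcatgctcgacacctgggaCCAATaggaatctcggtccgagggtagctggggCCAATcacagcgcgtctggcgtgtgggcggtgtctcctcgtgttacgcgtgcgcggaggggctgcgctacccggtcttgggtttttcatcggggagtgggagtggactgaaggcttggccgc
MIR222HG: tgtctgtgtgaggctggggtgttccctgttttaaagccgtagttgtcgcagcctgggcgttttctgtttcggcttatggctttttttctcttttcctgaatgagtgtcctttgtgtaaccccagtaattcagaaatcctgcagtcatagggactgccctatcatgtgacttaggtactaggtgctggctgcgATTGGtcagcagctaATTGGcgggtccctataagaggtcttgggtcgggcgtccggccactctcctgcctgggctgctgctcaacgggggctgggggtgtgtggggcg

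Each promoter held 2 CCAAT boxes, which began 105 and 72 bases before the start of LINC02226 and 58 and 43 bases before that of MIR222HG. Of 35116 RefSeq promoters of the same length, 34.6% held at least 1. The other motifs searched for on both strands were absent from both windows: the TATA box TATAAA (in 11.5% of all promoters), the AP-1 site TGAGTCA or TGACTCA (4.95%), the cyclic AMP response element TGACGTCA (1.85%), the ETS site CCGGAAG (10.3%), the CArG box (1.29%) and the EGR site GCGTGGGCG or GCGGGGGCG (5.77%). No searched motif overlapped a CCAAT box in these windows. Variants of these letters, such as the TATAAG in the MIR222HG window, were not searched for. The LINC02226 promoter was richer in G and C, at 67.3% against 54.7% for MIR222HG.

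The libraries held between 12691510 and 26475402 reads on matched genes, except WT DMSO replicate 3, which held 4013039, a range of 6.6-fold. This library listed 1170 genes at 0, against 3 to 127 in the others, and log2 values against WT cells in DMSO alone are given with and without it. PRKAA1 lay between 7.03 and 8.51 RPKM in the AMPK KO libraries and between 11.2 and 21.9 in the WT libraries, with no overlap, so its transcript was still present in the knockout line. PRKAA2 ranged from 5.39 to 7.43 RPKM in AMPK KO and from 6.78 to 12.1 in WT libraries, which overlapped. All 9 HEK293 markers were listed and summed to between 109 and 167 RPKM, with vimentin (VIM) from 49.1 to 82.3, although NEFM, PAX2 and LHX1 stayed below 1 RPKM. Markers of blood cells (2 of 3 listed) summed to at most 2.86 RPKM and those of fibroblasts (2 of 4 listed) to at most 1.43, while 0 of 3 hepatocyte markers were listed.

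In WT cells the ARC mRNA was at 2.41 and 1.33 RPKM in DMSO alone (replicates 2 and 3), at 12.9 and 11.3 after EGF, and at 1.82 and 1.12 when cordycepin preceded EGF. Both EGF libraries stood above every other library of the series, and the cordycepin libraries overlapped those with DMSO alone, of which the deeper one, replicate 2, was above both. The mean with cordycepin was 1.47 ± 0.491 RPKM (SD, n = 2), 12.2% of the 12.1 ± 1.12 RPKM with EGF alone. Its log2 fold change for cordycepin was -2.66, and 3 genes of the 22067 tested had a lower value.

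LINC02226 was the most abundant of the 4 per unit of length. In WT cells it was at 51.9 and 33.5 RPKM in DMSO alone, at 47.5 and 40.8 after EGF, and at 12.4 and 8.21 with cordycepin. The EGF libraries lay inside the range of DMSO alone and both cordycepin libraries were the lowest of the line. The mean with cordycepin was 23.3% of that with EGF alone, 10.3 ± 2.94 RPKM against 44.1 ± 4.80, and the log2 fold change was -2.03.

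MIR222HG was at 5.94 and 3.21 RPKM in WT cells with DMSO alone, at 9.05 and 7.23 after EGF, and at 1.94 and 1.07 with cordycepin. Here the 3 WT groups did not overlap: EGF was highest, cordycepin lowest. The cordycepin mean of 1.501 ± 0.615 RPKM was 18.4% of the EGF mean of 8.14 ± 1.29, with a log2 fold change of -2.10.

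GK-IT1 was at 9.91 and 4.38 RPKM in WT cells with DMSO alone, at 9.44 and 5.21 after EGF, and at 2.18 and 0.628 with cordycepin. These values rested on few reads, 67 and 7 in DMSO alone, 95 and 34 after EGF, and 25 and 4 with cordycepin. As for LINC02226, the EGF libraries lay within the range of DMSO alone and the cordycepin libraries below it. The mean was 19.2% of the EGF level (1.41 ± 1.10 against 7.32 ± 2.99 RPKM), a log2 fold change of -2.075.

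**Figure D2:**
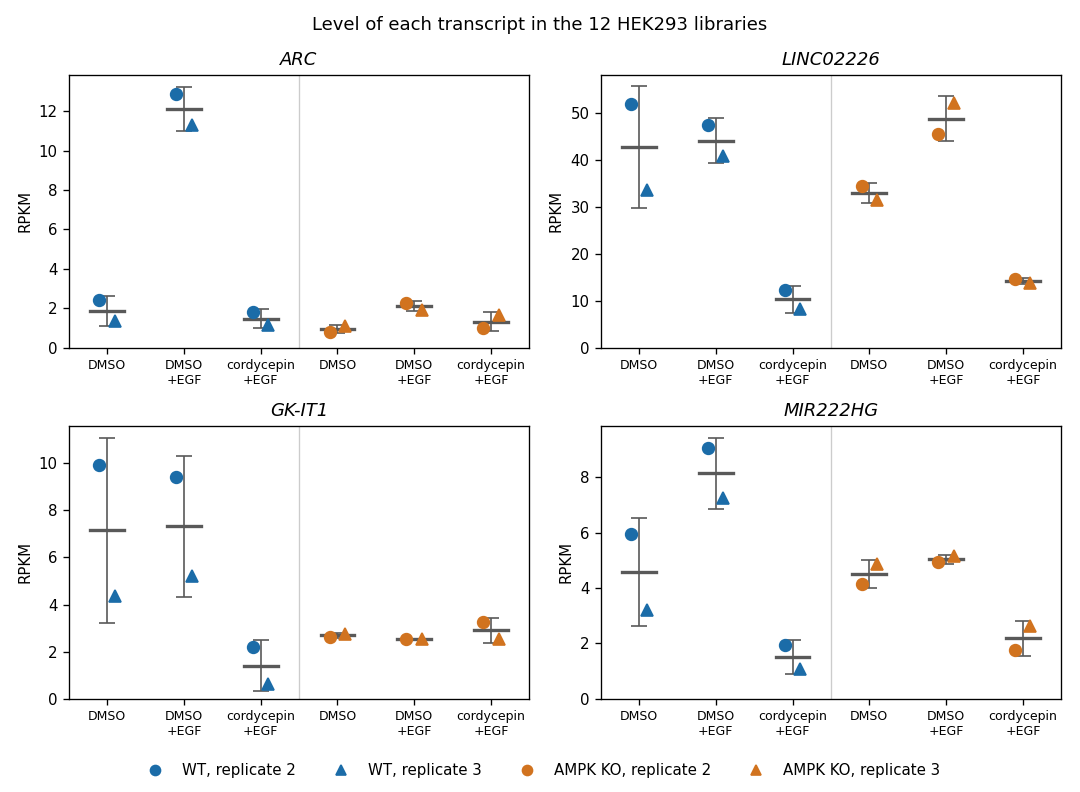
RPKM of ARC, LINC02226, GK-IT1 and MIR222HG (vertical axes, from 0) in the 6 groups of HEK293 libraries, WT in blue and AMPK KO in orange. Circles are replicate 2, triangles replicate 3, the horizontal line is the mean and the bar 1 SD. ARC stood out in WT DMSO+EGF at 12.9 and 11.3 RPKM, while LINC02226 and MIR222HG were lowest with cordycepin in both lines.

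A log2 fold change of -1 or less for cordycepin in WT cells was found for 1.32% of all genes tested, and for the 4 transcripts by choice. Ordered by p in a fit that held the replicate number as a term within each line, LINC02226, ARC, MIR222HG and GK-IT1 came first. The next by p was EGR1, an EGF-induced transcription factor, at -2.005, followed by the noncoding gene ENSG00000269902 at -1.985 and MIR5087 at -1.485. By log2 fold change the 4 were not the lowest. In WT cells 3, 9, 10 and 11 genes had lower values than ARC, MIR222HG, GK-IT1 and LINC02226. All 4 transcripts were higher in replicate 2 than in replicate 3 in each of the 3 WT groups, a pattern shared by 20.0% of all genes. The depth of WT replicate 3 was the lower one in each group, and its part in these values was not tested.

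The question of whether cordycepin needs AMPK was the purpose of the knockout line, whose libraries the rule for the 4 transcripts did not use, although the fall of LINC02226 in them was known beforehand. Of the 4, LINC02226 alone passed an adjusted p of 0.05 for cordycepin+EGF against DMSO+EGF in AMPK KO cells (limma, Benjamini-Hochberg over 22067 genes), at 29.2% of its EGF level. MIR222HG was at 43.4% and ARC at 63.1% of the EGF level, and GK-IT1 at 114%, none of which passed. So 1 of the 4 was called lower, against 0.0861% of all genes (19 lower, 85 higher). With a library left out the 19 became 0 to 567, the most without WT DMSO replicate 2 (559 without replicate 3). With the threshold that the study used, a log2 fold change of -1 or less with an unadjusted p of at most 0.05, LINC02226 and MIR222HG were called, against 0.394% of all genes. MIR222HG missed this threshold with a pseudocount of 1 (-0.90) and when the fit left out either replicate 3 of AMPK KO DMSO+EGF (-0.99) or replicate 2 of AMPK KO cordycepin+EGF (-0.79). At an unadjusted p under 0.05 alone, 10.1% of all genes were lower and 11.7% higher. Both cordycepin libraries lay below both EGF libraries for ARC, LINC02226 and MIR222HG, which held for 30.0% of all genes.

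In AMPK KO cells LINC02226 was at 45.5 and 52.2 RPKM after EGF and at 14.7 and 13.8 with cordycepin. The 2 groups were far apart relative to their spread, with means of 48.8 ± 4.76 and 14.3 ± 0.614 RPKM. The log2 fold change was -1.69 ± 0.238 (SE; 95% confidence interval -2.23 to -1.15; adjusted p = 0.0338, limma), and 15 genes had a lower value. The call was lost when only the 2 groups compared entered the fit (adjusted p = 0.101), although the fold change was the same. It was also lost without either WT DMSO+EGF library (adjusted p = 0.0698 and 0.0695 without replicates 2 and 3), either AMPK KO DMSO library (0.0747 and 0.0741), either AMPK KO DMSO+EGF library (0.192 and 0.2) or either AMPK KO cordycepin+EGF library (0.236 and 0.0774), with log2 fold changes from -1.79 to -1.59.

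MIR222HG was at 4.92 and 5.15 RPKM after EGF and at 1.74 and 2.64 with cordycepin in AMPK KO cells. Its cordycepin libraries were the lowest of the knockout line. The log2 fold change was -1.02 ± 0.310 (SE; 95% confidence interval -1.725 to -0.32; unadjusted p = 0.00926, adjusted p = 0.118, limma). On reads recovered from the RPKM steps, limma's voom gave -1.21 and called it (adjusted p = 0.0379), as it called 3.27% of all genes lower and 2.54% higher.

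The ARC mRNA was at 2.27 and 1.91 RPKM after EGF and at 0.981 and 1.66 with cordycepin in AMPK KO cells. The groups did not overlap, and the EGF level was 2.09 ± 0.254 RPKM, close to that of WT cells in DMSO alone. The log2 fold change was -0.50 ± 0.293 (SE; 95% confidence interval -1.16 to 0.17; adjusted p = 0.351, limma), an interval that includes 0. Leaving out replicate 2 of the cordycepin libraries gave -0.23, and leaving out replicate 3 gave -0.76.

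GK-IT1 was at 2.55 RPKM in both AMPK KO libraries after EGF, from 14 reads each, and at 3.27 and 2.53 with cordycepin, from 19 reads each. The groups overlapped. The log2 fold change was 0.19 ± 0.467 (SE; 95% confidence interval -0.87 to 1.245; adjusted p = 0.844, limma). The difference between the lines in the effect of cordycepin was not tested for any of the 4, because the WT libraries had made the choice.

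**Figure D3:**
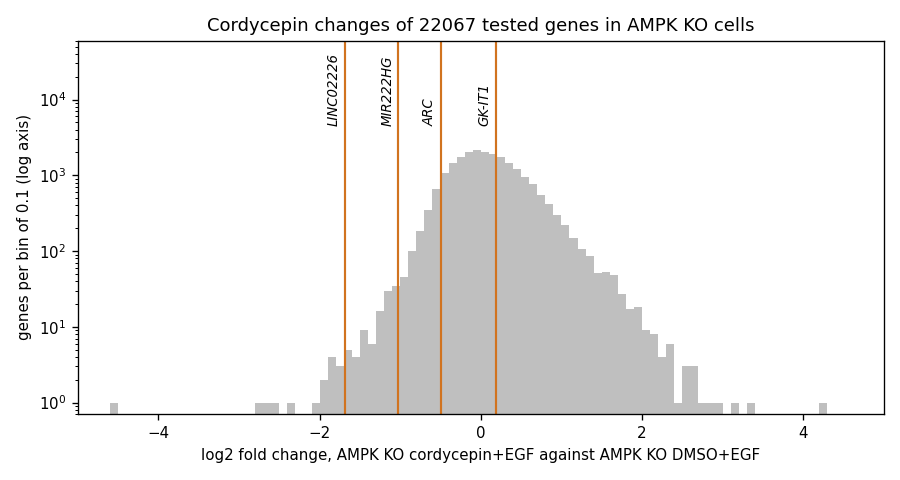
Number of genes (log axis) in bins of 0.1 of the log2 fold change for cordycepin+EGF against DMSO+EGF in AMPK KO cells, over the 22067 genes tested. Orange lines mark LINC02226 at -1.69, MIR222HG at -1.02, ARC at -0.50 and GK-IT1 at 0.19; 15, 110, 1486 and 13631 genes lay below them.

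In WT cells the mean of ARC with EGF was 6.47 times that in DMSO alone (log2 fold change 2.42, no test), and 5.02 times (2.08) without the shallow WT DMSO replicate 3. In AMPK KO cells ARC was at 0.803 and 1.09 RPKM in DMSO alone against 2.27 and 1.91 with EGF, a ratio of 2.20. Both EGF libraries were above both DMSO libraries, as they were for LINC02226 and MIR222HG and for 19.2% of all genes. The log2 fold change of ARC was 0.85 ± 0.293 (SE; 95% confidence interval 0.18 to 1.51), which did not pass the correction (unadjusted p = 0.0179, adjusted p = 1, limma). This comparison shares its AMPK KO DMSO+EGF libraries with the one for cordycepin.

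LINC02226 was at 34.5 and 31.5 RPKM in AMPK KO cells with DMSO alone, 1.48-fold below its EGF level (log2 fold change 0.57 ± 0.238, unadjusted p = 0.0416, adjusted p = 1, limma). In WT cells the ratio of EGF to DMSO was 1.03, and 0.85 without WT DMSO replicate 3. MIR222HG was at 4.15 and 4.87 RPKM in AMPK KO cells with DMSO alone, and its log2 fold change with EGF was 0.16 ± 0.310 (adjusted p = 1, limma), against 0.79 in WT cells, or 0.38 without WT DMSO replicate 3. GK-IT1 was at 2.62 and 2.75 RPKM with DMSO alone, with a log2 fold change of -0.05 ± 0.467 in AMPK KO (adjusted p = 1, limma) and 0.05 in WT cells, or -0.50 without WT DMSO replicate 3. By limma 0 of the 4 were called higher with EGF in AMPK KO cells, against 0.0136% of all genes (3 genes). At an unadjusted p under 0.05 the number was 2, ARC and LINC02226, against 1.03% of all genes, and voom called 0 of the 4 and 0.0136% of all genes.

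**Figure D4:**
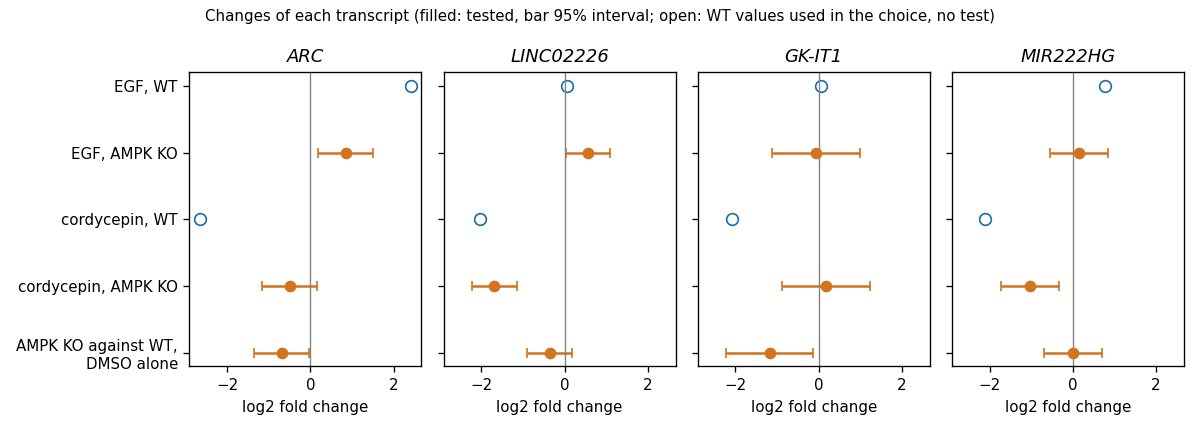
Log2 fold changes (horizontal axes) of the 4 transcripts for EGF, for cordycepin, and for AMPK KO against WT in DMSO alone. Filled orange points with a 95% confidence interval were tested, and open blue points are WT values from libraries used in the choice, with no test; for cordycepin in AMPK KO cells only the intervals of LINC02226 and MIR222HG lay wholly below 0.

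Against DMSO alone, rather than against EGF, cordycepin+EGF in AMPK KO cells gave a log2 fold change of -1.12 ± 0.238 for LINC02226 (unadjusted p = 0.0011, adjusted p = 0.0862, limma) and of -0.87 ± 0.310 for MIR222HG (unadjusted p = 0.0209, adjusted p = 0.166). ARC was at 0.35 ± 0.293 (adjusted p = 0.499) and GK-IT1 at 0.13 ± 0.467 (adjusted p = 0.888). This comparison shares its cordycepin libraries with the one above, and its groups differ in EGF as well as in cordycepin. Of the 4, 0 were called lower by limma, against 0.0272% of all genes, and 2 were lower at an unadjusted p under 0.05, against 10.0%. LINC02226 was called with a replicate term within each line (adjusted p = 0.0472), by voom (0.0169, with 3.79% of all genes lower), and without WT DMSO replicate 2 (0.0267) or replicate 3 (0.0269). In WT cells the corresponding log2 values were -1.98 for LINC02226, -2.02 for GK-IT1, -1.31 for MIR222HG and -0.24 for ARC, with no test. Without WT DMSO replicate 3 they were -2.30, -2.57, -1.715 and -0.58.

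AMPK KO cells were compared with WT cells in DMSO alone. Both AMPK KO libraries lay below both WT libraries for ARC and GK-IT1, 2 of the 4, against 22.1% of all genes. The log2 fold change was -1.18 ± 0.467 for GK-IT1 (95% confidence interval -2.24 to -0.12; unadjusted p = 0.0325, adjusted p = 0.199, limma) and -0.69 ± 0.293 for ARC (unadjusted p = 0.0423, adjusted p = 0.22). LINC02226 was at -0.36 ± 0.238 (adjusted p = 0.406) and MIR222HG at 0.01 ± 0.310 (adjusted p = 0.986), with overlapping libraries. Of the 4, 0 were called lower by limma, against 0.159% of all genes. By unadjusted p under 0.05 there were 2, against 9.29% of all genes, and voom called 0 of the 4 and 2.78% of all genes. Without the shallow WT DMSO replicate 3 the value was -1.73 for GK-IT1, -1.03 for ARC, -0.67 for LINC02226 and -0.39 for MIR222HG. Without replicate 2 instead it was -0.63, -0.35, -0.04 and 0.42, and none passed either way.

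With EGF the log2 fold change of AMPK KO against WT was -2.265 for ARC, -1.29 for GK-IT1, -0.62 for MIR222HG and 0.16 for LINC02226. With cordycepin the values were -0.11 for ARC, 0.98 for GK-IT1, 0.46 for MIR222HG and 0.50 for LINC02226. These values use the libraries of the choice and carry no test.

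Over the 6 groups the order of the levels differed between the 4 transcripts. ARC was highest in WT DMSO+EGF, and the 5 other groups, from AMPK KO DMSO+EGF at 2.09 RPKM down to AMPK KO DMSO at 0.949 ± 0.206, could not be separated from their neighbours by their libraries. For LINC02226 the order was AMPK KO DMSO+EGF, WT DMSO+EGF, WT DMSO at 42.7 ± 13.03 RPKM and AMPK KO DMSO at 33.0 ± 2.13, all overlapping their neighbours, and then, clear of them and of each other, AMPK KO cordycepin+EGF and WT cordycepin+EGF. MIR222HG was highest in WT DMSO+EGF, had AMPK KO DMSO+EGF, WT DMSO (4.58 ± 1.93 RPKM) and AMPK KO DMSO (4.51 ± 0.510) close together in the middle, and was lowest with cordycepin, where the lines overlapped. For GK-IT1, both WT groups without cordycepin were on top and overlapped (WT DMSO at 7.15 ± 3.91 RPKM), all 3 AMPK KO groups lay between 2.55 and 2.90 RPKM on average, and WT cordycepin+EGF was lowest.

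The genes around the 4 transcripts were looked up for the same comparison, cordycepin in AMPK KO cells. ADGRB1, an adhesion receptor 66039 bp from ARC, was at 0.05 ± 0.222 (adjusted p = 0.925, limma), a value whose sign turned with median-ratio scaling (-0.0022). JRK, 42980 bp away on the other side, was at 0.47 ± 0.211 (adjusted p = 0.237). MIR4458HG runs from the other strand across the start of LINC02226 and shares 168 of its 1587 exonic bases; it was at 0.12 ± 0.189 (adjusted p = 0.732) and, in WT cells, at 0.40. It was scarce, at 0.271 to 1.42 RPKM over all libraries, and whether the reads were counted by strand was not given in the sources used here. MTRR, methionine synthase reductase, 427455 bp from LINC02226, was at -0.07 ± 0.119 (adjusted p = 0.759), and ENSG00000279075, 1283 bp from it, at 0.85 ± 0.527 (adjusted p = 0.373).

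GK itself, which phosphorylates glycerol, was at -0.34 ± 0.192 with cordycepin in AMPK KO cells (adjusted p = 0.334, limma) and at -0.37 in WT cells, where GK-IT1 was at -2.075. In WT cells GK went from 15.4 ± 0.542 RPKM with EGF to 11.5 ± 0.955 with cordycepin. ENSG00000241886, a noncoding gene 26040 bp beyond GK-IT1, was at -0.73 ± 0.376 (adjusted p = 0.289) and at -0.79 in WT cells. Next to MIR222HG, the histone demethylase KDM6A was at -0.25 ± 0.205 (adjusted p = 0.498) and LINC02595 at 0.32 ± 0.244 (adjusted p = 0.461). ENSG00000269902 lies inside the span of MIR222HG on the same strand and shares 0 exonic bases with it. It was at -1.985 in WT cells, close to MIR222HG, and at -0.36 ± 0.514 in AMPK KO cells (adjusted p = 0.717). Its WT value rested on 146 and 49 reads after EGF and on 37 and 8 with cordycepin. Reads from unspliced MIR222HG RNA would fall in ENSG00000269902 too, and these data cannot tell the sources apart. None of these neighbours passed the test in AMPK KO cells.

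Likeness of pattern was measured by Pearson's r over the 12 libraries on the log2 scale, among 3454 genes whose group means ranged over at least 1 log2 unit. The libraries share treatment groups and depth, so these r values are a description. They include the WT libraries of the choice, so the fall for which the 4 were chosen enters r among them. LINC02226 and MIR222HG were each other's most alike gene (r = 0.916). Next to LINC02226 came the mitochondrial tRNAs MT-TA (0.884) and MT-TR (0.882), and MT-TA fell with cordycepin in AMPK KO cells (log2 fold change -2.56 ± 0.359, adjusted p = 0.0332, limma), from 12 and 13 reads after EGF to 2 and 2 with cordycepin. Next to MIR222HG came TRIB1, a pseudokinase (0.871), and the small nuclear RNA variant RNVU1-34 (0.87). In WT cells the log2 fold change for cordycepin was -2.345 for MT-TA, -3.10 for MT-TR and -3.19 for RNVU1-34, with no test. These are lower than the value of LINC02226, and MT-TA had 2 reads in each WT cordycepin library. Closest to ARC were PXDC1 (0.901), TRIB1 (0.898) and the noncoding ENSG00000289237 (0.868), and TRIB1 was at 28.1 ± 3.29 RPKM with EGF and 9.78 ± 1.46 with cordycepin in WT cells. Closest to GK-IT1 were ENSG00000269902, the transcript within MIR222HG (0.953), ENSG00000233848 (0.947) and GK-AS1, which runs antisense to GK (0.938). Without WT DMSO replicate 3 the first gene for LINC02226, MIR222HG (r = 0.932) and GK-IT1 (0.97) was the same, whereas PXDC1 (0.899) was no longer first for ARC. Among the 4 the lowest r was that of ARC with LINC02226, 0.431.

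Genes of the kinds to which the 4 belong were described by their counts for cordycepin in AMPK KO cells, where the median log2 fold change of all genes was 0.0556. For these and for the lists that follow, counts at an unadjusted p are to be read against the shares of all genes, 10.1% lower and 11.7% higher. Counts by voom are to be read against 3.27% lower and 2.54% higher. Of 222 other LINC RNAs tested, 42 had a value below 0 and 180 above (median 0.271). By limma 0 of them were called lower and 2 were called higher, LINC01355 (1.20 ± 0.152, adjusted p = 0.026) and LINC01730 (1.85 ± 0.259, adjusted p = 0.0332). At an unadjusted p under 0.05, 4 of the 222 were lower and 58 higher. By voom 2 were called lower and 11 higher. LINC01783 had the smallest p among those with a negative value (-1.18 ± 0.202, adjusted p = 0.0505), and it was called lower in 5 of 11 other fits. Of 32 other microRNA host genes 7 were below 0 and 25 above (median 0.307), with MIRLET7IHG, host of let-7i, at 0.89 ± 0.199 (adjusted p = 0.07), MIR503HG at 0.86 ± 0.207 (0.0795) and MIR762HG at 0.86 ± 0.212 (0.0838). Of 65 other intronic transcripts 16 were below 0 and 49 above (median 0.29), with ARHGAP22-IT1 at 1.29 ± 0.317 (adjusted p = 0.0836), SLC7A2-IT1 at 1.11 ± 0.293 (0.092) and THRB-IT1 at 0.95 ± 0.281 (0.114). By limma these last 2 lists had 0 calls in either direction, with 7 and 8 genes higher and 0 lower at an unadjusted p under 0.05, and voom called 3 host genes higher and 0 intronic transcripts. With cordycepin in WT cells, 79 of the 222 LINC RNAs were below 0 and 143 above (median 0.155). Of the 32 host genes 12 were below 0 and 20 above there (median 0.125). The 65 intronic transcripts went the other way in WT cells, with 42 below 0 and 23 above (median -0.0817). The median of all genes in WT cells was 0.033. In WT cells 0 of these 222, 32 and 65 genes had a log2 fold change of -1 or less, against 1.32% of all genes. The lowest values were -0.899, -0.554 and -0.893.

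Among 34 tested genes that respond rapidly to growth factors, the kind to which ARC belongs, 29 had a value above 0 with EGF in AMPK KO cells and 3 were called higher, EGR1 among them (5.28 ± 0.186, adjusted p = 9.73e-06, limma). These 3 were all the genes called higher with EGF in this line, 0.0136% of all genes. The median of the 34 with EGF was 0.319, against 0.00626 for all genes. With cordycepin in the same line 19 of the 34 were below 0 (median -0.0425) and 1 was called lower, KLF6, a zinc finger transcription factor (-0.87 ± 0.12, adjusted p = 0.0325), a call kept with 3 of 12 libraries left out in turn (adjusted p from 0.021 to 0.236). The share of all genes called lower by limma was 0.0861%. At an unadjusted p under 0.05, 8 of the 34 were lower and 3 higher, against 10.1% and 11.7% of all genes. By voom 3 were called lower and 1 higher, against 3.27% and 2.54% of all genes. EGR1 was at -0.89 ± 0.186 (adjusted p = 0.0644) and NR4A1, an orphan nuclear receptor, at 0.60 ± 0.16 (adjusted p = 0.0949). With cordycepin in WT cells 24 of the 34 were below 0 and 10 above (median -0.189), with no test. Of the 34, 3 had a log2 fold change of -1 or less there, against 1.32% of all genes.

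Of 9 factors known to act on ARC transcription, 8 were below 0 with cordycepin in AMPK KO cells (median -0.175) and 0 were called by limma or by voom, with 2 at an unadjusted p under 0.05. These were ELK4, a partner of the serum response factor, at -0.44 ± 0.162 (adjusted p = 0.172), and CREB1, which binds cyclic AMP response elements, at 0.56 ± 0.211 (adjusted p = 0.179). MRTFA, another partner of the serum response factor, was at -0.22 ± 0.129 (adjusted p = 0.342). Of 10 partners and degradation factors of the ARC protein 7 were below 0 (median -0.117), and 0 were called by limma (2 at an unadjusted p under 0.05) or by voom. The ubiquitin ligase UBE3A was at -0.34 ± 0.105 (adjusted p = 0.126), the clathrin adaptor subunit AP2M1 at -0.26 ± 0.0962 (0.174) and the kinase CAMK2B at 0.45 ± 0.225 (0.279). The 15 tested genes that, like ARC, derive from Gag were split, with 7 below and 8 above 0 (median 0.0107), 0 called by limma, 3 at an unadjusted p under 0.05 and 1 called by voom. RTL10 was at 0.53 ± 0.124 (adjusted p = 0.0743), RTL6 at -0.39 ± 0.12 (0.123) and the apoptosis modulator MOAP1 at -0.57 ± 0.224 (0.189).

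Of 13 tested mRNAs known as targets of miR-221 and miR-222, 7 were below and 6 above 0 with cordycepin in AMPK KO cells (median -0.0252). At an unadjusted p under 0.05, 1 was lower and 1 higher, and voom called 1 lower and 1 higher. By limma 1 was called lower and 0 higher, against 0.0861% of all genes called lower. PPP2R2A, a regulatory subunit of protein phosphatase 2A, was the 1 called, and it was lower (-0.54 ± 0.0913, adjusted p = 0.049, limma), a call kept with 2 of 12 libraries left out in turn and in 5 of 11 other fits. SOCS1, an inhibitor of cytokine signalling, was at 1.22 ± 0.227 (adjusted p = 0.0574) and KIT, a receptor tyrosine kinase, at 0.64 ± 0.287 (0.236). Of 7 tested genes of glycerol metabolism, GK included, 5 were below 0 (median -0.271), and 0 were called by limma, 2 at an unadjusted p under 0.05 and 1 by voom. The mitochondrial glycerol-3-phosphate dehydrogenase GPD2 was at -0.58 ± 0.111 (adjusted p = 0.0574), GPD1L at -0.30 ± 0.133 (0.23) and the lipase LIPE at 0.44 ± 0.218 (0.271).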

How the data were processed

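RNA-seq libraries were stranded, depleted of ribosomal RNA and sequenced in paired ends. Per the study's methods, the authors mapped reads to GRCh38.p13, counted them with Rsubread (version and strand setting not given in the sources used here) and left out replicate 1 as an outlier. The deposited values are RPKM per Ensembl gene; symbols and exons were taken from GENCODE release 44, which matched 26029 of 26058 genes, and 2 further rows without a gene were left out. Reads could be recovered from the RPKM steps for 25082 genes (96.36%; tolerance 0.05). The voom fit was not limited to these. It used rounded reads of every matched gene that passed the filter, 22044 genes.

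RPKM were divided by each library's upper quartile, put back on a common scale, and tested as log2(value + 0.5) with limma 3.58.1 in R 4.3.3 (group means over all 12 libraries, empirical Bayes with trend, two-sided, Benjamini-Hochberg over the 22067 genes that averaged 0.5 RPKM or more). Fold changes on this scale understate those of low genes. Tables and figures were made with Python 3.11.15, pandas 2.3.3 and matplotlib 3.10.9, and the fit was tested on simulated data.

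The 4 transcripts, the gene lists and the tests were chosen with earlier results of these data known, and LINC02226 had been seen in the AMPK KO comparison as well. Named genes were the 4 transcripts, GK, PRKAA1 and PRKAA2, neighbours, the 3 most alike genes for each, and from each list up to 3 genes with the smallest p for cordycepin in AMPK KO cells. EGR1, ENSG00000269902 and MIR5087 were also named for their place next to the choice. Alternatives covered the pseudocount, the filter, the scaling, the libraries in the fit, a replicate term, the trend, voom on recovered reads, and each library left out. Leaving WT DMSO replicate 3 out of the untested WT values and of the likeness of patterns was added after seeing the data.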

Additional observations from a re-analysis of the deposited data

How the results depend on the processing

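For cordycepin in AMPK KO cells, 1 of the 4 transcripts was called, 0 with only the groups compared in the fit, 2 with voom on recovered reads, and 0 to 1 with a library left out. Against DMSO alone 0 were called, 1 with a replicate block inside each line, 1 with voom, and 0 to 1 with a library left out. For EGF in AMPK KO and for AMPK KO against WT in DMSO alone the number was 0 in every fit run. LINC02226 passed in 10 of 11 other fits and in 4 of 12 with a library left out, with log2 fold changes from -1.79 to -1.59, and ARC and GK-IT1 passed in none.

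The replicate numbers did not pair the AMPK KO libraries (r of deviations -0.0677, 0.0307 and -0.122), whereas the WT groups gave 0.136, 0.282 and 0.314. Between groups of different lines r ranged from -0.0809 (WT DMSO with AMPK KO cordycepin+EGF) to 0.322 (WT cordycepin+EGF with AMPK KO DMSO). With the replicate block, LINC02226 kept -1.69 for cordycepin in AMPK KO (adjusted p = 0.0349), and 19 genes were called lower and 73 higher.

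The sign changed for these values near 0. MIR222HG in AMPK KO against WT in DMSO alone went from 0.01 to -0.14 with voom and to between -0.39 and 0.42 with a library left out. ADGRB1 for cordycepin in AMPK KO went to -0.0022 with median-ratio scaling and to between -0.0298 and 0.12 with a library left out, and MIR4458HG to between -0.0088 and 0.26. GK-IT1 for cordycepin against DMSO alone in AMPK KO went to between -0.0307 and 0.30, the negative value without AMPK KO cordycepin+EGF replicate 2. The cause was not tested.

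Counts over all genes moved too. For cordycepin in AMPK KO 19 lower and 85 higher genes became 0 and 0 with only the groups compared, 41 and 193 with no filter on low values, 5 and 40 with a filter at a mean RPKM of 1, 6 and 44 with a pseudocount of 0.1, 4 and 14 with the block within each line, and 720 and 561 with voom. With a library left out they ranged from 0 to 567 and from 0 to 793, the most without WT DMSO replicate 2. Over all 11 other fits, 6 lower and 73 higher genes against DMSO alone became 0 to 835 and 3 to 714, 35 and 62 in AMPK KO against WT in DMSO alone became 1 to 613 and 0 to 1048, and 3 higher genes for EGF became 1 to 3. With a library left out these were 0 to 483 and 3 to 810, 4 to 1376 and 1 to 1689, and 1 to 4. The most were called without WT DMSO replicate 3, except for EGF. LINC01355, LINC01730 and MT-TA each passed in 9 of 11 other fits and in 2, 3 and 2 of 12 with a library left out. With 2 libraries a group, and 4 to 95 reads for GK-IT1 in each, its changes were the least precise of the 4.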
